A study of Mus musculus with 6 samples.

Results

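The Notch pathway passes signals between touching cells. Its receptors (Notch1 to Notch4) are bound by ligands of the Jagged and Delta-like families on a neighboring cell, are then cut by ADAM proteases and by γ-secretase, and release an intracellular domain that joins the DNA-binding protein RBPJ to switch on repressor genes of the HES and HEY families. In bone, Notch signaling is known to restrain osteoblast differentiation and to act in osteocytes, osteoclast precursors, vessel walls and macrophages. The genes examined here were 10, taken by symbol from the deposited count table: the 4 receptors, the ligands *Jag1*, *Jag2* and *Dll1*, and the target genes *Hes1*, *Hey1* and *Heyl*. The table lists 56748 genes, and every one of the 10 symbols matched a single gene.

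Bulk RNA was sequenced from primary osteocytes of long bones, in 3 libraries from WT (C57BL/6J) mice and 3 from mice labelled cKO. These cKO mice are *Gsdmd* fl/fl, DMP1-Cre, with *Gsdmd* floxed and Cre driven by the dentin matrix protein 1 promoter. Their libraries are called the cKO-labelled group here, since the *Gsdmd* counts in them went against the label. The isolation protocol names mice aged 7 weeks, and the cells were kept for 7 days in culture. The cells of all 6 were stimulated, with 10 ng/mL LPS over 3 h followed by 20 µg/mL aluminum hydroxide over another 3 h. No value below therefore compares stimulated with unstimulated cells. The WT mice are not described as carrying the floxed allele or Cre, so the Cre transgene cannot be told apart from the deletion. The labels number the libraries 1 to 3, and whether these are separate cultures, or from 1 mouse or several, is not stated. The p-values measure the spread between these libraries.

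The libraries held 39566835 to 49734046 counts on genes, so that 1 CPM (1 count per 1000000, after TMM scaling) was worth 38.8 to 49.6 counts. *Gsdmd* itself had 549 to 699 counts per WT library and 885 to 1045 per cKO-labelled library, a rise in place of a loss, and this gene-wide count does not separate the floxed exons. *Xist*, expressed from the inactive X chromosome, had 0 to 4 counts in WT and at least 44817 in the other group. The Y-linked *Ddx3y* had at least 4033 counts in WT and 0 in the other group. The WT libraries thus read as male and the cKO-labelled ones as female by these genes, although the methods describe sex-matched mice. For every difference between the groups below, sex and genotype cannot be told apart. Of 6 osteocyte markers, *Sost* was at 0 in all 6 libraries, *Dmp1* had at most 6 counts and *Mepe* at most 2. *Phex* had 2 to 22 counts and *Pdpn* at least 7743. *Fgf23* had 8 to 34 counts in WT and 0 to 6 in the cKO-labelled group. The summed level of 10 macrophage markers was 1097 to 1238 CPM in WT against 5845 to 6152 CPM in the cKO-labelled group, most of it from *Lyz2*, and all 10 rose. In bulk RNA, a change in the number of cells of a type and a change in RNA per cell cannot be told apart.

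*Notch1* and its ligand gene *Jag1* rose about 2-fold in the cKO-labelled group, *Notch3*, *Notch4* and the target gene *Hes1* fell, and *Notch2*, by far the most abundant receptor, stood at the same level in both groups. In all, 2 members were called higher and 3 lower with edgeR (quasi-likelihood test, Benjamini-Hochberg adjustment over 17146 genes, calls at 0.05). Among all tested genes, 39.3% were called, 20.1% higher and 19.2% lower, beside 5 of the 9 members that could be tested. A log2 fold change of at least 1 in size was also reached by 4 of the 9, where 11.2% of all tested genes reached it. The libraries of the groups did not overlap for 5 of the 9, against 49.2% of all tested genes. The members were chosen with earlier results of these data known, so these shares are a description and not a test of the set. The median log2 fold change of the 9 was 0.00016, and that of all tested genes 0.0077. *Heyl* had too few counts to be tested, and each of the other 9 had at least 14 counts in every library.

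Before the values, the sequence just upstream of 4 members is shown: *Notch1* and *Jag1*, which rose, and *Notch3* and *Notch4*, which fell by the most. Each run is the 250 bases before the RefSeq transcription start (promoter table on GRCm38.p6), given at the place where it matched GRCm39 exactly once, on the strand of the gene. Capitals mark the N-box, CACNAG or CTNGTG on the other strand, an element known to be bound by HES repressors.
*Notch1*, chr2:26393835-26394084, minus strand: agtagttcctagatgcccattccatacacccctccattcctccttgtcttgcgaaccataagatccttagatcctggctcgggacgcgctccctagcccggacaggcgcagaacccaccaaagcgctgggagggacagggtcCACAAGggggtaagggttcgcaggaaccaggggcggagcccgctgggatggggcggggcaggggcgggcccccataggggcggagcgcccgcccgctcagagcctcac
*Jag1*, chr2:136958441-136958690, minus strand: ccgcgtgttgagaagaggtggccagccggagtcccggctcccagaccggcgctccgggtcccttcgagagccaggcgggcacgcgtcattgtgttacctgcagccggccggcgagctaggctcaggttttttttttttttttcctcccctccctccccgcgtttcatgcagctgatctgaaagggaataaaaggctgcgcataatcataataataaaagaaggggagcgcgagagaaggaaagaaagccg
*Notch3*, chr17:32385865-32386114, minus strand: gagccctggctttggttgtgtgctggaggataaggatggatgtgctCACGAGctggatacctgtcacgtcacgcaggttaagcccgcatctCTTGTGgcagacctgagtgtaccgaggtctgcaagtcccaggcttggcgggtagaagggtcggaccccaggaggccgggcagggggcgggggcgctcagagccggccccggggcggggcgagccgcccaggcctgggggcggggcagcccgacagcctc
*Notch4*, chr17:34783019-34783268, plus strand: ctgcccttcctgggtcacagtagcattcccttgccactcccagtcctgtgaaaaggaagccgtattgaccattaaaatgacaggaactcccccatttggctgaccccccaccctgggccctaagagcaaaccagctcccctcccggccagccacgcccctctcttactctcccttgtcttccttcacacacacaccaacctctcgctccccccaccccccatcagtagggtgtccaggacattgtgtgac

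The *Notch3* window held 2 N-boxes, starting 204 and 159 bases before the start, and the *Notch1* window held 1, starting 108 bases before it. The *Jag1* and *Notch4* windows held none. Of the 10 members, 7 had an entry, in 8 windows since *Dll1* has 2, and 3 of the 8 windows held an N-box, where 36.7% of 32536 different windows in the table did. The core of the RBPJ site (TGGGAA or TTCCCA), the E-box (CACGTG) and the AP-1 site (TGACTCA or TGAGTCA) were in none of the 8, where 21.6%, 6.04% and 4.45% of all windows held them. No 2 of these motifs overlapped in the windows of the members. The *Notch4* window held 4 CpG dinucleotides, near the median of 6 over all windows, while *Notch1* held 16, *Jag1* 20 and *Notch3* 17. The start used for *Notch1* lies 12840 bases inside the gene as the deposited table draws it, and those of the other 3 lie within 123 bases of the table's start. *Hes1*, *Hey1* and *Heyl* had no entry.

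*Notch2*, on chromosome 3 of mm39 from 97920843 to 98057677, encodes the receptor whose gain of function is known to cause bone loss. It was counted 12109, 12663 and 11232 times in WT and 11413, 11050 and 12012 times in the cKO-labelled group, which is 271 ± 17.2 and 271 ± 6.73 CPM (SD, n = 3 each). The groups overlapped fully. On the log2 scale the change was 0.00016 (standard error 0.046), and its 95% interval ran from -0.10 to 0.10, or from 0.934-fold to 1.07-fold.

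*Notch1*, on chromosome 2 from 26347915 to 26406675, encodes the receptor best known from T cells and vessels, also used in bone and macrophages. It was counted 1012, 1046 and 920 times in WT and 2098, 1996 and 2226 times in the other group. Every cKO-labelled library lay above every WT library, with 22.4 ± 1.31 CPM in WT and 49.7 ± 0.615 CPM in the cKO-labelled group (SD, n = 3 each). On the log2 scale the change was 1.15 (standard error 0.063, adjusted p = 8.7e-11 by edgeR).

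*Notch3*, on chromosome 17 from 32339794 to 32385826, encodes the receptor known for its role in vascular smooth muscle and pericytes. Its counts of 2024, 2075 and 1797 in WT stood against 841, 840 and 954 in the cKO-labelled group. The groups did not overlap, and the level fell from 44.4 ± 2.30 to 20.7 ± 0.625 CPM (SD, n = 3 each), with a log2 change of -1.10 (standard error 0.066, adjusted p = 2.94e-10 by edgeR). *Notch4*, on the same chromosome from 34783242 to 34807477 and known mainly from endothelial cells, had the largest change of the 9 tested members. It was counted 359, 430 and 358 times in WT and 85, 76 and 132 times in the cKO-labelled group. No library of the 2 groups overlapped, with 8.62 ± 0.625 CPM in WT and 2.28 ± 0.546 CPM in the cKO-labelled group (SD, n = 3 each). On the log2 scale the change was -1.91 (standard error 0.18, adjusted p = 8.83e-08 by edgeR).

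**Figure D1:**
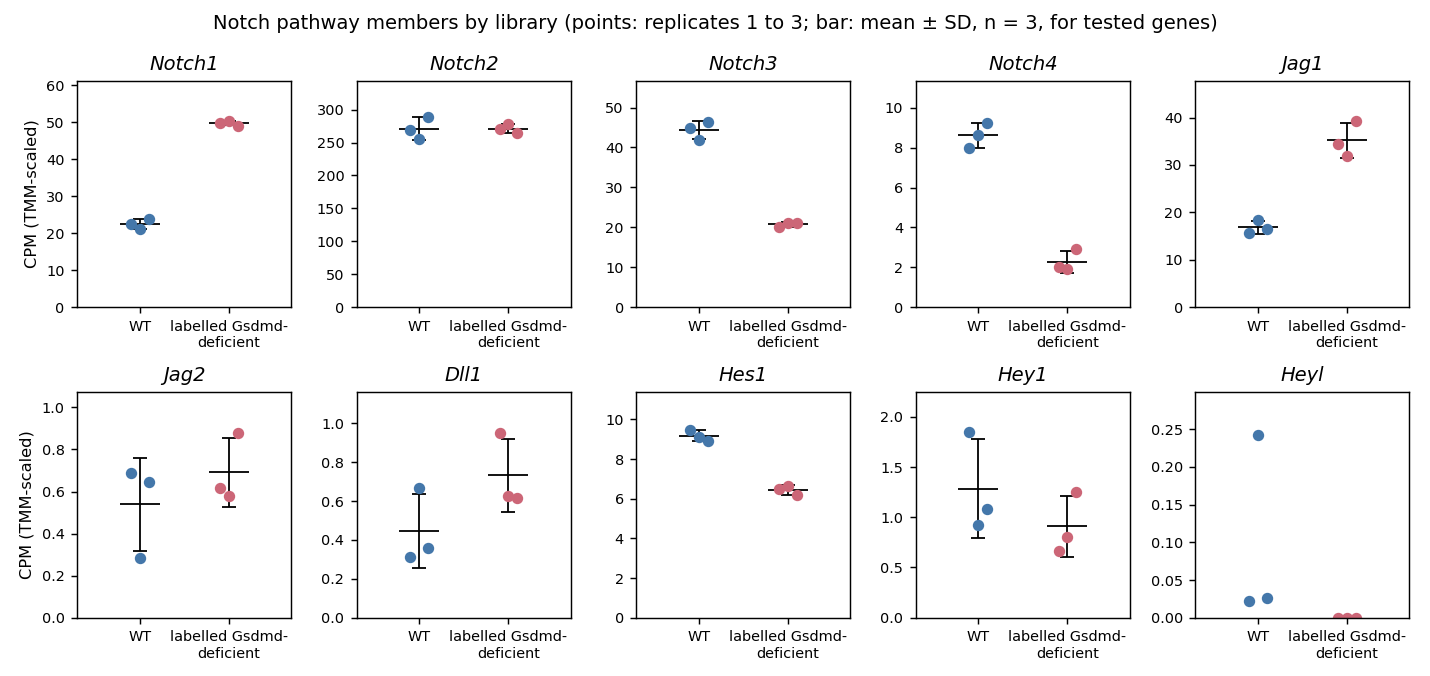
Each panel shows 1 member, with the TMM-scaled CPM of each library on a linear axis from 0, WT on the left and the cKO-labelled group (axis text: labelled Gsdmd-deficient) on the right; bars give the mean ± SD of n = 3 for the 9 tested genes. Notch1 and Jag1 are higher, and Notch3, Notch4 and Hes1 lower, in every cKO-labelled library, while Notch2, Jag2, Dll1 and Hey1 overlap and Heyl rests on 1 WT library.

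Because *Notch1* and *Notch3* moved in opposite directions, their order turned over. Per kilobase of gene length (RPKM), the receptors ranked *Notch2* at 25.2 ± 1.60, *Notch3* at 5.48 ± 0.285, *Notch1* at 1.58 ± 0.0923 and *Notch4* at 1.07 ± 0.0775 in WT (SD, n = 3). The order in the cKO-labelled group was *Notch2* at 25.2 ± 0.624, *Notch1* at 3.49 ± 0.0432, *Notch3* at 2.56 ± 0.0772 and *Notch4* at 0.283 ± 0.0677 RPKM. In neither group did neighbors in these orders overlap between libraries. The ratio of *Notch1* to *Notch3* per kilobase was 0.284, 0.287 and 0.291 in the WT libraries and 1.42, 1.35 and 1.33 in the others. No test is given for this ratio, since it was formed from 2 genes already seen to move apart without overlap.

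The summed RPKM of the 4 receptors was 33.3 ± 2.00 in WT and 31.5 ± 0.618 in the cKO-labelled group (SD, n = 3 each), and the 2 groups overlapped. Within that sum, the share of *Notch1* went from 4.73% ± 0.0365 to 11.1% ± 0.104, that of *Notch3* from 16.5% ± 0.313 to 8.13% ± 0.261 and that of *Notch4* from 3.22% ± 0.217 to 0.901% ± 0.232 (SD, n = 3 each). None of these 3 shares overlapped between the groups. *Notch2* held 75.6% ± 0.270 in WT and 79.9% ± 0.497 in the cKO-labelled group, a difference of 4.31 percentage points that shrank to 0.625 when counts were not divided by gene length.

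**Figure D2:**
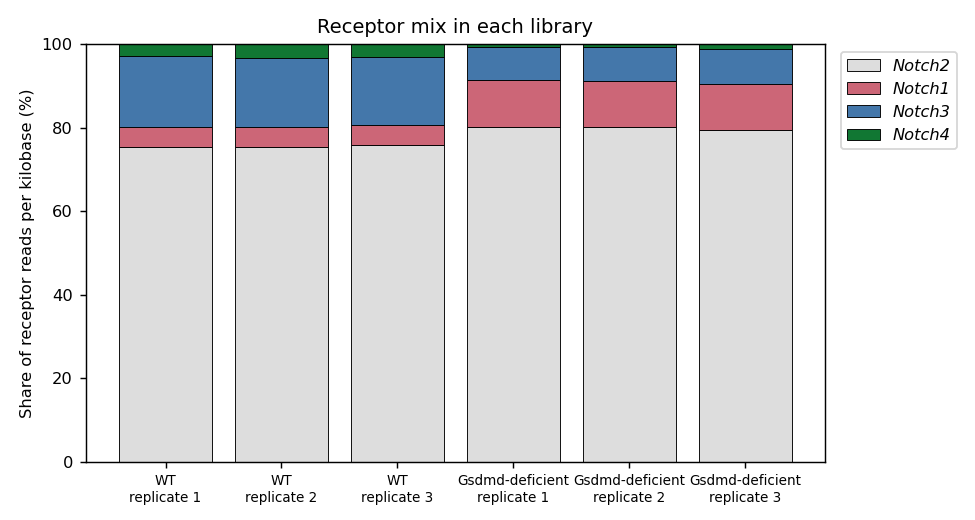
Each bar is 1 library and adds to 100% of the reads per kilobase on the 4 receptors. Notch2 fills 75.4% to 80.2% of every bar, and the Notch1 segment is larger and the Notch3 segment smaller in all 3 cKO-labelled bars (axis text: Gsdmd-deficient) than in the WT bars.

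*Jag1*, on chromosome 2 from 136923376 to 136958564, encodes the Jagged ligand that osteoblast lineage cells are known to make. It was counted 701, 914 and 637 times in WT and 1452, 1265 and 1782 times in the cKO-labelled group. The groups did not overlap, at 16.8 ± 1.46 and 35.2 ± 3.75 CPM (SD, n = 3 each), and the log2 fold change was 1.07 (standard error 0.088, adjusted p = 2.19e-08 by edgeR). Among the 3 ligands, *Jag1* made up 94.0% ± 0.0870 of the reads per kilobase in WT and 95.7% ± 0.614 in the other group. The summed RPKM of the 3 ligands therefore followed it, from 3.07 ± 0.264 to 6.31 ± 0.660 (SD, n = 3 each).

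*Jag2*, the second Jagged gene, on chromosome 12 from 112871439 to 112893396, was counted 31, 14 and 25 times in WT and 26, 23 and 40 times in the cKO-labelled group. *Dll1*, a Delta-like ligand on chromosome 17 from 15587616 to 15597134, was counted 14, 33 and 14 times in WT and 40, 25 and 28 times in the cKO-labelled group. Both sets of libraries overlapped. At these depths the 95% intervals of the log2 fold change were wide, from -0.59 to 1.34 around 0.38 for *Jag2* (adjusted p = 0.563 by edgeR) and from -0.26 to 1.66 around 0.70 for *Dll1* (adjusted p = 0.252 by edgeR). The log2 fold change of *Jag1*, 1.07, lies inside both intervals. Their RPKM of 0.0773 ± 0.0320 and 0.106 ± 0.0454 in WT (SD, n = 3 each) also overlapped each other.

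*Hes1*, on chromosome 16 from 29883202 to 29886614, encodes the repressor most often read as a sign of Notch activity, and it responds to other pathways too. It was counted 427, 453 and 346 times in WT and 274, 264 and 280 times in the cKO-labelled group. All WT libraries lay above all of the other group, at 9.18 ± 0.289 and 6.44 ± 0.246 CPM (SD, n = 3 each). For *Hes1* the fitted log2 difference of -0.51 (standard error 0.12, adjusted p = 0.0022 by edgeR) had a 95% interval from -0.76 to -0.26, so that *Hes1* fell while *Notch1* and *Jag1* rose in the same libraries.

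*Hey1*, a HEY family repressor on chromosome 3 from 8728419 to 8732316, was counted 83, 46 and 42 times in WT and 28, 32 and 57 times in the cKO-labelled group. The groups overlapped, since replicate 3 of the cKO-labelled group exceeded 2 WT libraries. Its log2 fold change was -0.49 with a 95% interval from -1.28 to 0.29 (adjusted p = 0.33 by edgeR). *Heyl*, on chromosome 4 from 123127349 to 123143668 and known from smooth muscle as a target of *Notch3*, was counted 1, 12 and 1 times in WT and 0 times in each library of the other group. Only WT replicate 2 exceeded a floor of 3 counts per library, and no other library exceeded 1 count. No fold can therefore be given. The 14 counts of *Heyl* in all came almost wholly from WT replicate 2.

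**Figure D3:**
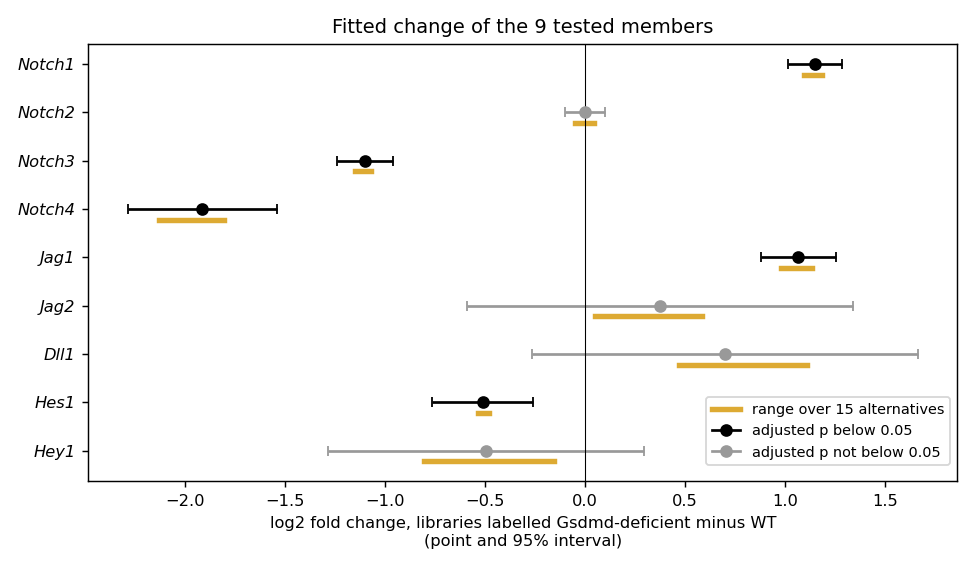
Points give the log2 fold change of the cKO-labelled group minus WT for the 9 tested members, with 95% intervals from the edgeR fit; the bar under each point spans 15 alternative fits. The intervals of Notch1, Jag1, Notch3, Notch4 and Hes1 stay clear of 0 (black), that of Notch2 is narrow and centred on 0, and those of Jag2, Dll1 and Hey1 are wide (grey).

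Markers of other cells moved alongside these genes. Marker counts here and in the next paragraph are to be read against all tested genes. Of those, 39.3% were called, and 11.2% also reached a log2 fold change of at least 1 in size. Of 8 tested markers of mural and smooth muscle cells, 6 fell by a log2 fold change of at least 1, beside *Notch3* and *Notch4*, and 1 rose, with summed levels of 1598 to 1802 CPM in WT and 956 to 1036 CPM in the cKO-labelled group. Among them, *Myh11*, a smooth muscle myosin, went from 10.0 ± 2.84 to 0.445 ± 0.198 CPM, while *Pdgfrb*, a receptor of pericytes and other stroma, was at 367 ± 12.3 and 353 ± 7.28 CPM (SD, n = 3 each). Of 7 tested endothelial markers, 4 fell and 2 rose, and their summed level was low, at 12.5 to 14.5 CPM in WT and 20.8 to 23.7 CPM in the other group. *Cdh5*, a defining endothelial cadherin, went from 1.69 ± 0.654 to 0.197 ± 0.138 CPM, whereas *Vwf* went from 4.46 ± 0.781 to 14.2 ± 1.00 CPM (SD, n = 3 each). *Tie1*, with 3, 24 and 8 counts in WT, and *Kcnj8*, with 2 in each WT library, were at 0 in every cKO-labelled library and too low to test. The macrophage markers given above rose beside *Notch1* and *Jag1*. The part that these cell types had in the changes of the Notch genes was not tested.

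Markers of bone and cartilage cells did not move as 1 block. Of 5 tested osteoblast markers 2 rose and 3 fell, with summed levels of 5570 to 6207 CPM in WT and 3609 to 3890 CPM in the cKO-labelled group, most of it from *Col1a1*, and *Bglap* was too low to test. *Pdpn*, the only osteocyte marker that could be tested, fell from 234 ± 7.59 to 193 ± 3.57 CPM (SD, n = 3 each). Of 4 tested osteoclast markers 1 rose and 1 fell (summed 101 to 106 CPM in WT, 79.3 to 91.2 CPM in the cKO-labelled group). Of 5 tested chondrocyte markers 4 rose and 1 fell, while their summed level was lower, at 861 to 953 CPM against 1410 to 1575 CPM in WT. That sum is almost all *Col2a1*, the marker that fell, from 1428 ± 77.7 to 798 ± 47.5 CPM, whereas *Acan* rose from 0.124 ± 0.0736 to 20.2 ± 0.521 CPM and *Col11a2* from 2.15 ± 0.405 to 18.9 ± 1.99 CPM (SD, n = 3 each). Of 4 tested marrow stromal markers 2 rose and 1 fell, and their summed level went from 413 to 476 CPM in WT to 1096 to 1119 CPM, most of it from *Cxcl12*.

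Beyond the 10 members, 46 further genes of the pathway were listed, and 38 of them had enough counts to be tested. Of these, 14 were called higher and 7 lower, and 3 in each direction also reached a log2 fold change of 1 in size. Over all tested genes 20.1% were higher, 19.2% lower and 11.2% past that fold limit in either direction, and the counts of this list and of the groups within it are to be read against those shares. The median log2 fold change of the 38 was 0.07.

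The gene with the largest rise was *Aph1c*, which encodes a subunit of γ-secretase, the protease that cuts the receptor within the membrane. It rose from 5.95 ± 0.140 to 27.1 ± 0.347 CPM (SD, n = 3 each), with a log2 change of 2.19 (standard error 0.087, adjusted p = 1.07e-12 by edgeR). Its close paralog *Aph1b* was at 15.6 ± 1.25 and 18.8 ± 2.18 CPM. How the counting treated reads that fit both genes is not stated, so that both values are uncertain. The call of *Aph1b* (log2 fold change 0.27, adjusted p = 0.0353 by edgeR) was lost without WT replicate 1 (0.20, adjusted p = 0.171), WT replicate 3 (0.27, adjusted p = 0.0548) or cKO-labelled replicate 1 (0.18, adjusted p = 0.225).

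Among the other γ-secretase genes, *Psen2*, which encodes a catalytic subunit, rose (log2 fold change 0.55, adjusted p = 2.21e-05 by edgeR), and *Ncstn*, which encodes nicastrin, fell by 0.22 on the log2 scale (adjusted p = 0.000407). *Aph1a* and *Psenen* did not pass, with log2 fold changes of -0.04 and 0.16. In the whole group of 10 cleavage genes, which also holds the proteases *Adam10*, *Adam17* and *Furin*, 6 were higher and 1 lower. *Ncstn* had the highest level of the group per kilobase, at 58.2 ± 1.83 RPKM in WT (SD, n = 3).

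*Lfng*, which encodes a glycosyltransferase known to shift receptors toward Delta-like ligands, rose from 4.07 ± 0.595 to 12.0 ± 1.22 CPM (SD, n = 3 each), with a log2 change of 1.57 (standard error 0.14, adjusted p = 6.49e-08 by edgeR). It was the only one of 4 tested glycosylation genes to pass, and *Poglut1*, the most abundant per kilobase, had a log2 fold change of -0.04. Of the ligand-like genes, *Dner* rose from 1.04 ± 0.0567 to 2.74 ± 0.217 CPM and *Dlk1*, which lacks the domain that activates receptors, fell from 3.17 ± 0.344 to 1.52 ± 0.291 CPM (SD, n = 3 each, adjusted p = 0.000214 and 0.00152 by edgeR). *Dlk2*, the most abundant of that group per kilobase, did not pass (log2 fold change -0.31), and *Dll4*, with 4 to 14 counts in each library, was not tested.

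In the nucleus, *Rbpj* itself was at 387 ± 9.48 CPM in WT and 381 ± 4.50 CPM in the cKO-labelled group (SD, n = 3 each, log2 fold change -0.02, adjusted p = 0.657 by edgeR). Of the Mastermind coactivators that join it, *Maml2* rose (log2 fold change 0.64, adjusted p = 8.88e-08 by edgeR), *Maml1* fell by 0.28 on the log2 scale (adjusted p = 0.00105), and *Maml3* did not pass at -0.26. Of the 6 genes listed for the nuclear complex and its corepressors, 1 was higher and 2 lower.

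Of the other HES and HEY genes, both that could be tested fell. *Hes6* went from 23.0 ± 0.596 to 14.1 ± 0.650 CPM (-0.71 on the log2 scale, adjusted p = 1.37e-06 by edgeR) and *Hey2*, known from vessels and heart, from 0.867 ± 0.254 to 0.198 ± 0.103 CPM (SD, n = 3 each, log2 fold change -2.12, adjusted p = 0.00303 by edgeR). The counts of *Hey2* were 28 to 56 in WT and 4 to 12 in the cKO-labelled group. *Hes5* was at 0 in all 6 libraries, and *Hes2*, *Hes3* and *Hes7* were too low to test. In the group of genes for ligand endocytosis and receptor turnover, 5 of 13 tested were higher and 1 lower, namely *Dtx1*, a Deltex gene that fell from 1.26 ± 0.314 to 0.391 ± 0.0451 CPM (SD, n = 3 each, log2 fold change -1.68, adjusted p = 0.00231 by edgeR). *Dtx3*, the most abundant of that group per kilobase, had a log2 fold change of 0.03. *Nrarp*, a feedback inhibitor, had 0 counts in every WT library and 2 to 6 counts in the others, too few to test.

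**Figure D4:**
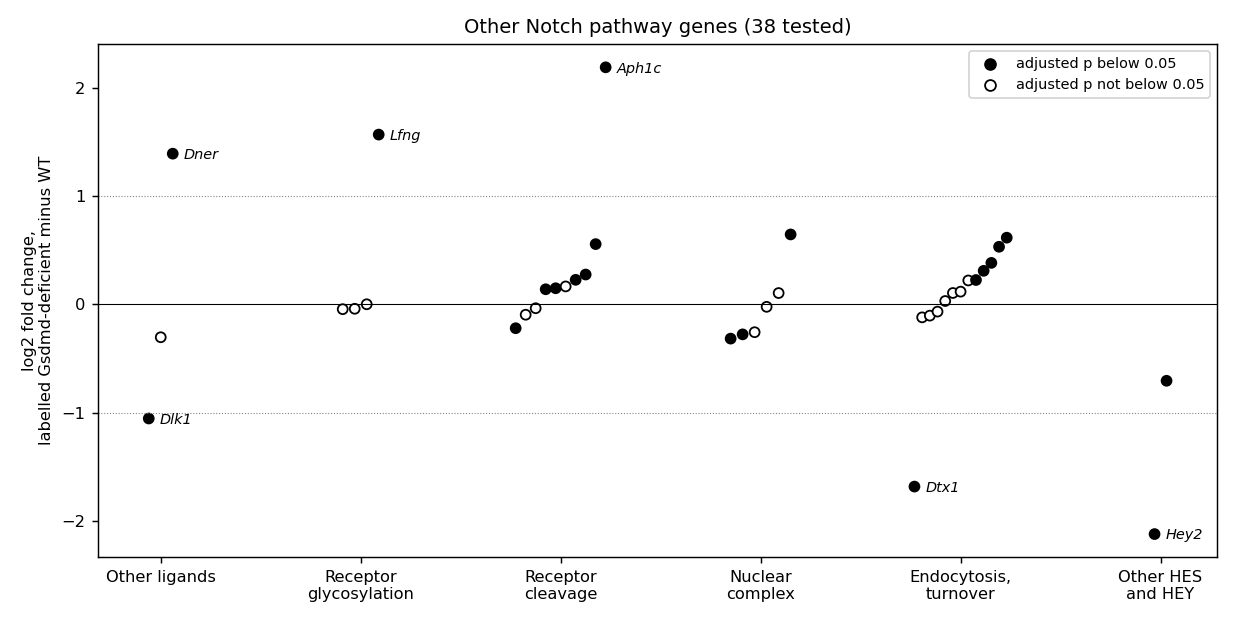
Each point is 1 of the 38 tested pathway genes outside the 10 members, placed by its log2 fold change (cKO-labelled group minus WT) within its functional group; filled points have an adjusted p below 0.05 and dotted lines mark 1 and -1. Aph1c, Lfng and Dner lie above 1, and Hey2, Dtx1 and Dlk1 below -1, while most of the others lie close to 0.

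Reads on overlapping genes cannot be separated where the strand setting of the counting is not stated. *Notch1* overlaps 2 antisense long noncoding RNAs with at most 70 counts in any library, *Notch3* overlaps 1 with at most 83, and *Notch2* overlaps 2 annotated transcripts of its own strand with at most 22 each. The pseudogene antisense to *Notch4* had 0 counts. The lowest counts of the receptors themselves were 920, 840 and 11050 for *Notch1*, *Notch3* and *Notch2*. Any reads left uncounted because they fit both genes do not appear in these counts.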

How the data were processed

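RNA-seq of 3 WT libraries and 3 libraries labelled cKO was analysed, with groups and replicate numbers taken from the sample titles. The authors trimmed 150 bp paired-end reads from a directional kit, aligned them to mm39 with HISAT2 (2.0.5 in the submitters' processing notes) and counted them with featureCounts (1.55.0-p3 there; the methods name another release, and RSEM). They deposited raw counts per gene, not normalized, and gene lengths. Even numbers made up 63.4% to 65.7% of small counts (those no larger than 10). The fit on halved counts addresses this for fold changes and calls only. Printed counts, floors and the comparison with sampling noise use the counts as deposited, and the cause was not tested. Floors and intervals cover counting error or the spread between libraries only.

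From the deposited counts, edgeR 4.0.16 in R 4.3.3 was run over all genes (filterByExpr, TMM, glmQLFit, glmQLFTest, genotype as the only term), with Benjamini-Hochberg adjustment and calls at an adjusted p-value below 0.05. Standard errors are the log2 fold change divided by the root of the F statistic. RPKM are TMM-scaled CPM per kilobase of the deposited gene length. In simulated counts, the fit called 77 of 100 genes changed by a log2 fold of 1 and 94 of 100 changed by 2. Among 16795 genes fitted, it also called 14 that were unchanged. Replicates differed by more than sampling noise (chi-square per gene 4.13 to 10.6), and each library was counted once.

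The 10 members and all gene lists were chosen with earlier results of these data known. Of the other pathway genes, those that passed with a log2 fold change of at least 1 in size, the most abundant of each group and those of the γ-secretase and RBPJ complexes were named, except where a gene is not reported here. Marker genes and overlapping genes were named as examples after their values were seen. Alternatives were DESeq2 1.42.0, limma-voom (limma 3.58.1), robust estimation, RLE scaling or library size alone, 2 other filters, a replicate block, halved counts, a fold limit and each library left out.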

Additional observations from a re-analysis of the deposited data

How the results depend on the processing

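The 2 members called higher and the 3 called lower kept those numbers under 9 alternative fits and with each of the 6 libraries left out, and their 5 directions and calls held in every one. With a log2 fold change of at least 1 required, 2 were lower, since *Hes1* dropped out, and the other pathway genes went from 14 to 3 higher and from 7 to 3 lower. Of 135 values over the 9 tested members, 6 changed sign, all of *Notch2*, which never passed: -0.0109 with DESeq2, -0.0110 with RLE scaling, -0.00011 with counts halved, and from -0.0518 to 0.0448 as libraries were left out. *Dtx3*, also never past the threshold, ranged from -0.0213 to 0.0680 with libraries left out. Of 299 values over the 20 pathway genes picked by the naming rule, 4 lost their call, all of *Aph1b*, and 4 gained one, of *Psenen* and *Maml3*. Without length scaling the *Notch2* share differed by 0.625 percentage points.

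With the replicate number as a block, 13 other pathway genes were higher and 7 lower, and 2 members were higher and 3 lower; *Aph1b* lost its call (adjusted p = 0.0575). Over all genes tested, correlations of deviations ran from -0.0136 to 0.00116 for same-numbered libraries and from -0.0148 to 0.0152 for the others. Such small correlations cannot exclude a modest shared effect, so whether same-numbered libraries share more than a number was not settled. Depth limits *Jag2*, *Dll1*, *Hey1* and *Heyl*. With every gene of at least 1 count fitted, *Heyl* had an adjusted p of 0.0907 by edgeR.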
